A study of Rattus norvegicus with 18 samples.

Results

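The training response shared by 3 diets was described in rat hippocampus from all 18 arrays of the series, 10 from trained and 8 from naive animals. The members are the samples, 18 of 18, and the question is which transcripts differed between trained and naive animals in the same direction whatever the diet. The diets were labelled alcohol, isocaloric and control, in a study of learning after prenatal exposure to alcohol. Training is abbreviated CFC in the labels and is not spelled out there, and how long after it the tissue was taken is not given in these sources. The alcohol diet had 4 trained and 4 naive arrays, the isocaloric diet 4 trained and 2 naive, and the control diet 2 trained and 2 naive. An isocaloric diet is one that matches another in calories, here the alcohol diet as far as its name tells. Strain, age, sex and the dose of alcohol were not found in the labels. Whether replicates were separate animals or shared a litter is not labelled, so the p-values reflect spread among these samples only and part of it may be technical.

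Learning that depends on the hippocampus begins with synaptic calcium entry through NMDA receptors, which activates kinases such as CaMKII, protein kinase A and the MAP kinases. These reach the nucleus and, through CREB and related factors, induce immediate early genes such as Arc, Fos, Egr1 and Nr4a1 for a short time. Later waves of transcription and local translation reshape synapses. The level seen in a dissected hippocampus therefore depends on when the tissue is taken.

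Total signal per array was 2.92e+06 to 3.13e+06, and the log2 signals of 2 arrays from 1 group had a Pearson r of 0.965 to 0.982. No pair of arrays was identical. Of 15923 probe sets, 57 were Affymetrix controls and 15866 were tested, of which 9520 lay at or above the 40th percentile of mean level (5.78 on the log2 scale). Control naive replicate 1 and control trained replicate 2 carried at most 6 digits in 100% of their values, whereas elsewhere the share was 3.10% to 3.67%. This pair, called the few-digit arrays here, was treated as a possible batch. Several results that rest on it are given with and without it. Control-diet medians of gene lists, pairwise diet counts and many control-diet values of single genes are given only with it included. The log2 ratio of 3-prime to 5-prime signal, a measure of RNA integrity, differed by 0.01 between trained and naive arrays for Gapdh (exact permutation p = 0.727, two-sided) and by 0.02 for Actb (exact permutation p = 0.741).

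Averaged over the 3 diets with equal weight, the breakpoint cluster region gene Bcr stood first, 0.51 higher on the log2 scale in trained animals. The magnesium and calcium channel kinase Trpm7 (0.55 higher) and Ramp1, a receptor partner of the peptide CGRP (a difference of -0.35), came next among higher and lower genes at or above the 40th percentile of level. A probe set without a gene symbol had a smaller p than either, with a difference of -0.38 (limma adjusted p = 0.123). Neither these nor any other transcript passed the test. Of 15866 probe sets, 0 (0%) had a Benjamini-Hochberg adjusted p under 0.05 in limma, 0 in each direction. At an unadjusted p under 0.05 there were 887 (5.59%), 415 higher (2.62%) and 472 lower (2.97%) in trained animals. Other ways of processing the same 18 arrays gave 0 to 2 calls. With quantile normalisation the 2 were Bcr and a probe set assigned to both Cyp11b1 and Cyp11b3, each higher in trained animals. Probe sets with several symbols were left out of the ranking of genes. Without control naive replicate 1 there were 95 calls (82 higher, 13 lower), of which 63 had the same direction in all 3 diets, and without both few-digit arrays 17 (13 higher, 4 lower), of which 11 did. The first fit keeps 1 control naive array, and the other compares 1 control trained with 1 control naive array. The spread of such lone arrays is assumed to be that of the other groups. Leaving out any other array in turn gave 0 or 1 calls.

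The same direction in all 3 diets was found for 3573 probe sets (22.5% of those tested), 1665 higher (10.5%) and 1908 lower (12%) in trained animals. This count had no test of its own, and signs also agree by chance, so it does not by itself show a shared response. Among probe sets at or above the 40th percentile of level the share was 21.3% (2027 of 9520). The same direction together with an unadjusted p under 0.05 for the average was found for 636 (4.01%), 287 higher (1.81%) and 349 lower (2.2%). An unadjusted p under 0.05 in each diet with the same direction held for 6 probe sets (0.0378%). Of these, Bcr was higher and Ramp1, Prm3 and Rd3l were lower in trained animals, as were 2 probe sets without a gene symbol. Trained and naive arrays did not overlap within any of the 3 diets for 9 probe sets (0.0567%), 3 higher (0.0189%) and 6 lower (0.0378%). In a diet taken alone they did not overlap for 4.58% of probe sets in the alcohol diet, 19.5% in the isocaloric diet and 35.7% in the control diet, which has the fewest arrays. Those higher were Bcr, Trpm7 and a probe set without a gene symbol, and those lower were Abcf1, Pde3b, Prm3, Rd3l and 2 probe sets without a symbol. Prm3, a protamine of sperm chromatin, and Rd3l had mean levels of 4.59 and 4.47, below the 40th percentile.

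Bcr encodes a multidomain signalling protein with a kinase domain, which is found at excitatory synapses in brain. Its log2 signal in the alcohol diet was 7.95, 8.08, 7.90 and 7.79 in trained and 7.42, 7.66, 7.67 and 7.58 in naive animals. The isocaloric diet gave 7.76, 8.16, 7.81 and 8.07 in trained and 7.62 and 7.37 in naive animals. The control diet gave 7.82 and 8.10 in trained and 7.39 and 7.09 in naive animals. All 10 trained arrays lay above all 8 naive arrays, the lowest trained array being isocaloric replicate 1 and the highest naive array alcohol replicate 3. The trained minus naive difference was 0.35 (SE 0.11) in the alcohol diet, 0.46 (SE 0.13) in the isocaloric diet and 0.72 (SE 0.15) in the control diet. The average was 0.51 (SE 0.08, 95% interval 0.34 to 0.67, limma adjusted p = 0.0827), which is 1.42-fold. Within the control diet the difference was 0.71 between the 2 arrays of few digits and 0.72 between the other 2 arrays. Without the few-digit arrays the average was 0.51 with an adjusted p of 0.0365, and without the 4 arrays highest in the choroid plexus gene Ttr it was 0.59 (limma adjusted p = 0.0886). With 1 array left out at a time the adjusted p ranged from 0.00773, without control naive replicate 1, to 0.420, without isocaloric naive replicate 2, with the sign kept throughout. Control naive replicate 1 was the 1 array whose removal brought Bcr past the threshold.

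**Figure D1:**
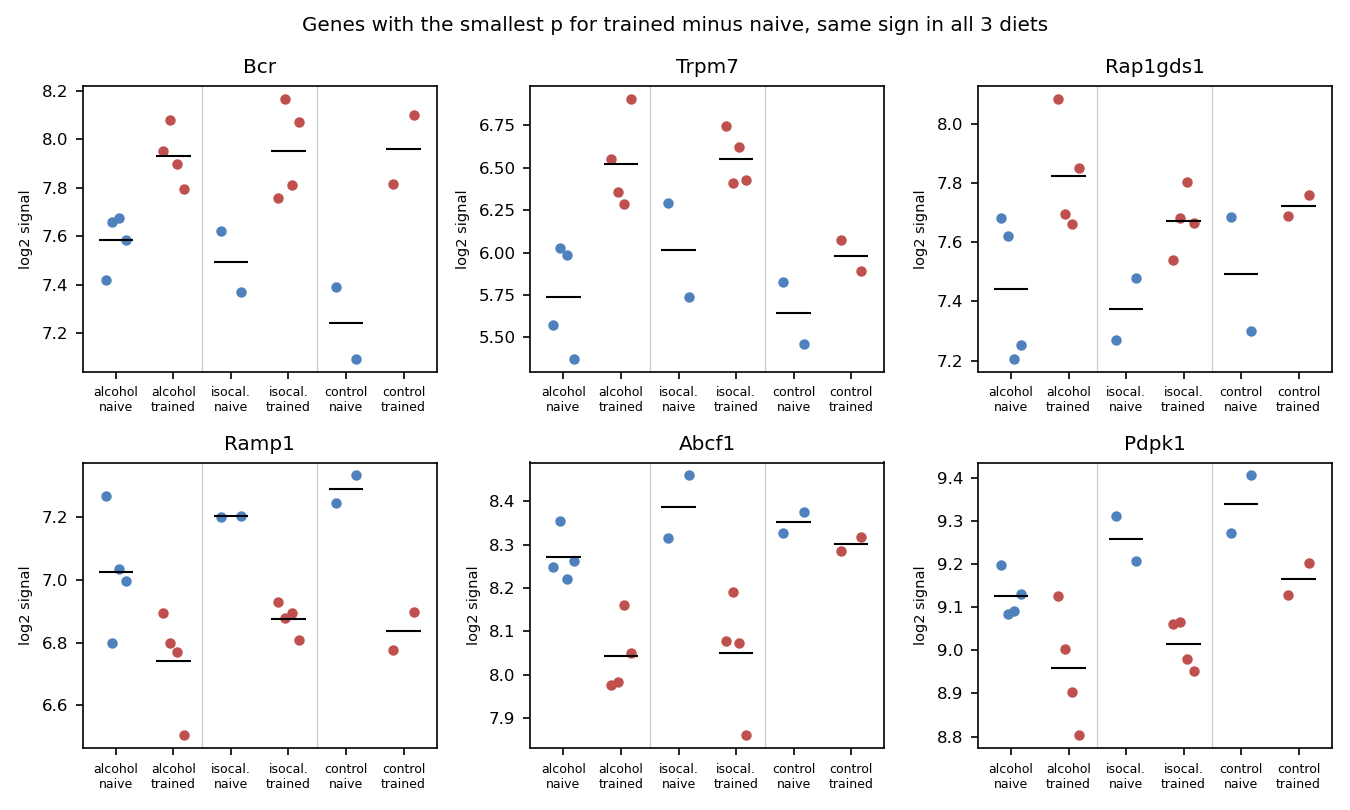
Log2 signal (vertical axes, which do not start at 0) of 6 genes that ranked by p with the same sign in all 3 diets, by diet and training (horizontal axes), with 1 point per array, naive in blue and trained in red, and bars at group means. For Bcr all 10 trained arrays lay above the 8 naive arrays, while trained and naive arrays of both Rap1gds1 and Ramp1 overlapped in the alcohol diet.

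The plot of leading genes shows how far trained and naive arrays separated within each diet. Trpm7, a channel for magnesium, calcium and zinc fused to a kinase, had log2 signals of 6.55, 6.36, 6.29 and 6.91 in alcohol trained and 5.57, 6.03, 5.99 and 5.37 in alcohol naive animals. It was 6.75, 6.41, 6.62 and 6.43 in isocaloric trained and 6.29 and 5.74 in isocaloric naive animals. It was 6.07 and 5.89 in control trained and 5.83 and 5.46 in control naive animals. Within each diet every trained array lay above every naive array, and the control-diet arrays as a whole were low. The differences were 0.79, 0.54 and 0.34 in the alcohol, isocaloric and control diets, with an average of 0.55 (SE 0.13, limma adjusted p = 0.595). Another, dimmer probe set of Trpm7 gave 0.16 (95% interval -0.14 to 0.46).

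Rap1gds1, also called SmgGDS, is an exchange factor and chaperone for small GTPases. It was 0.30 higher on average (SE 0.09, limma adjusted p = 0.721), with differences of 0.38, 0.30 and 0.23. The groups overlapped in the alcohol diet, and in the control diet naive replicate 1 lay just below both trained arrays. Errfi1, a feedback inhibitor of the EGF receptor that glucocorticoids also induce, was 0.33 higher (SE 0.09, limma adjusted p = 0.682). Its log2 signal was 7.46, 6.75, 7.08 and 6.98 in alcohol trained and 6.90, 6.68, 6.82 and 6.90 in alcohol naive animals, so these groups overlapped. In the control diet it was 7.40 and 7.24 against 6.66 and 6.88, without overlap, and without that diet the average was 0.21. Ppp1r1a, inhibitor 1 of protein phosphatase 1 and a substrate of protein kinase A, was 0.19 higher on average. Its differences were 0.32 and 0.24 in the alcohol and isocaloric diets and 0.01 in the control diet.

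The remaining genes among the 10 ranked higher were a mixed group of nuclear and signalling proteins. The helicase Rtel1, which maintains telomeres, was 0.34 higher, the nuclear kinase Hipk2 0.38, and Tead1, the DNA-binding partner of YAP in the Hippo pathway, 0.33. Tead1 was 0.17 higher without the 4 arrays highest in Ttr, and another probe set of it gave 0.09. Ttc7a, part of the complex that recruits phosphatidylinositol 4-kinase to the plasma membrane, was 0.23 higher. The tyrosine phosphatase Ptpn3 was 0.37 higher with 1 probe set and -0.01 with another. The limma adjusted p of these 10 genes ran from 0.0827 to 0.721. In the control diet the few-digit pair of arrays and the other pair had opposite signs for Rtel1 (-0.11 and 0.51), Hipk2 (-0.02 and 0.90) and Ppp1r1a (-0.14 and 0.16). Trained and naive arrays did not overlap in all 3 diets for 2 of the 10, in 2 diets for 4 and in 1 diet for 4.

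Among genes ranked lower in trained animals Ramp1 came first. Ramp1 is a single-pass membrane protein that joins the calcitonin receptor-like receptor to form the CGRP receptor. Its log2 signal was 6.89, 6.80, 6.77 and 6.50 in alcohol trained and 7.27, 6.80, 7.03 and 6.996 in alcohol naive animals. It was 6.93, 6.88, 6.89 and 6.81 in isocaloric trained and 7.20 and 7.20 in isocaloric naive animals. It was 6.78 and 6.90 in control trained and 7.24 and 7.33 in control naive animals. The groups separated in the isocaloric and control diets, and in the alcohol diet naive replicate 2 lay among the trained arrays. The differences were -0.28, -0.32 and -0.45, and the average was -0.35 (SE 0.07, 95% interval -0.50 to -0.20, limma adjusted p = 0.535). Without the few-digit arrays the average was -0.39 (adjusted p = 0.109, limma).

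Abcf1, an ABC-family protein that binds ribosomes and acts in translation initiation, differed by -0.21 (SE 0.05, limma adjusted p = 0.595). Its log2 signal was 7.98, 7.98, 8.16 and 8.05 in alcohol trained against 8.25, 8.36, 8.22 and 8.26 in alcohol naive animals. In the control diet it was 8.29 and 8.32 against 8.33 and 8.38. The groups did not overlap within a diet, but the control-diet difference was only -0.05, against -0.23 and -0.34 in the alcohol and isocaloric diets. Pdpk1, the kinase PDK1 that activates Akt and Sgk1, differed by -0.19 with its brighter probe set and by 0.02 with the other. Pde3b, a phosphodiesterase that degrades cAMP, had no overlap within any diet, with differences of -0.37, -0.27 and -0.15 (average -0.26, limma adjusted p = 0.754).

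The histone deacetylase Hdac11 differed by -0.28, with -0.39 and -0.36 in the alcohol and isocaloric diets and -0.09 in the control diet. On 9 of 10 trained arrays it lay below every naive array. Dtna, the dystrophin-associated protein dystrobrevin alpha, differed by -0.27, and the cyclin-dependent kinase Cdk18 by -0.23. The transcription elongation factor Ell2 differed by -0.25 and Timmdc1, an assembly factor of respiratory complex I, by -0.25. The Rab11 effector Rab11fip4 differed by -0.18, of which most came from the control diet (-0.48, against -0.03 and -0.03), and by -0.03 in the fit without that diet. Plpp3, a lipid phosphate phosphatase, differed by -0.50 with 1 probe set, whereas 2 brighter probe sets gave 0.04 and -0.04. The limma adjusted p of the 10 ranked lower ran from 0.535 to 0.720. In 17 of the 20 ranked genes both control-diet pairs of arrays had the same sign. All 20 ranked genes kept their sign without the few-digit arrays, without the 4 arrays highest in Ttr and without the control diet. They had been ranked on the same arrays, so this is a description.

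Differences between diets in the training response were tested in the same limma fit. The interaction over the 3 diets had 0 probe sets (0%) past the adjusted threshold and 1479 (9.32%) at an unadjusted p under 0.05. Without control naive replicate 1 the interaction count was 289 and without both few-digit arrays, with 1 array left in each control group, 96. Between pairs of diets, 3 probe sets (0.0189%) differed between the control and alcohol diets, 7 (0.0441%) between the isocaloric and control diets and 0 (0%) between the isocaloric and alcohol diets, where 696 (4.39%) had an unadjusted p under 0.05. These pairwise comparisons share arrays. Abhd17a, a depalmitoylating enzyme that acts on Ras proteins and PSD-95, was in both lists.

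Abhd17a had log2 signals of 9.09, 9.08, 9.03 and 8.78 in alcohol trained and 8.77, 8.81, 8.85 and 8.85 in alcohol naive animals. It was 8.98, 8.86, 8.84 and 8.98 in isocaloric trained against 8.68 and 8.72 in isocaloric naive animals. In the control diet it was 8.59 and 8.58 in trained against 9.11 and 9.44 in naive animals. Trained arrays were thus lower in the control diet and mostly higher in the other two. The control difference was -0.69, below that of the alcohol diet by 0.87 (difference -0.87, limma adjusted p = 0.0497) and below that of the isocaloric diet by 0.91 (limma adjusted p = 0.0390).

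Nras, the small GTPase at the head of the MAP kinase cascade, gave the largest such difference. Its log2 signal was 6.86, 6.74, 6.75 and 7.54 in alcohol trained and 7.92, 7.44, 7.57 and 8.06 in alcohol naive animals. It was 6.73, 7.12, 6.99 and 7.11 in isocaloric trained and 8.20 and 8.22 in isocaloric naive animals, and 7.87 and 7.34 in control trained against 6.86 and 6.84 in control naive animals. Trained animals had the lower levels in the alcohol and isocaloric diets and the higher levels in the control diet. The differences were -0.78, -1.23 and 0.76, and the isocaloric minus control difference of these was -1.98 (limma adjusted p = 0.0390). In a fit of the alcohol and isocaloric diets alone, Nras was the 1 probe set past the threshold for the average of both.

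The RNA demethylase Alkbh5 had training differences of -0.36, -0.16 and 0.61 in the alcohol, isocaloric and control diets, and the control minus alcohol difference was 0.97 (limma adjusted p = 0.0497). The potassium channel tetramerization domain protein Kctd17 had 0.29, 0.13 and -0.49 (control minus alcohol -0.78, limma adjusted p = 0.0497). For the isocaloric against the control diet the others were the La protein Ssb, the neuronal protein Nrep, the histone deacetylase Hdac5, the translation initiation subunit Eif3i and 1 probe set without a symbol. Ssb gave -0.61 against 0.73 and Nrep -0.67 against 0.79, while Hdac5 gave 0.26 against -0.58 and Eif3i 0.37 against -0.39. In all of these the sign in the alcohol diet was that of the isocaloric diet. Within the control diet the few-digit pair and the other pair of arrays had the same sign for Abhd17a (-0.53 and -0.86), Nras (0.48 and 1.03), Ssb (0.67 and 0.78) and Hdac5 (-0.59 and -0.56).

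In single diets the training effect was past the adjusted threshold for 0 probe sets (0%) in the alcohol diet, 1 (0.0063%) in the isocaloric diet and 0 (0%) in the control diet, in limma. At an unadjusted p under 0.05 the numbers were 1249 (7.87%), 952 (6%) and 1423 (8.97%). The control-diet count was 600 without control naive replicate 1, 13 without control naive replicate 2 and 208 without both few-digit arrays. The isocaloric count was 0 to 2 with 1 array left out at a time. Tmf1, a Golgi coiled-coil protein, rose in the isocaloric diet by 1.52 (SE 0.22, limma adjusted p = 0.0400), from 4.59 and 4.37 to 5.85, 6.31, 6.21 and 5.63. Its differences were 0.03 in the alcohol diet and -0.31 in the control diet. Its mean level of 5.54 lay below the 40th percentile. The isocaloric count was 0 with a constant of 32 and with a term for the few-digit arrays. It was also 0 without any 1 of 11 arrays, namely alcohol trained replicate 1 or 2, isocaloric trained replicate 1, 2 or 3, alcohol naive replicate 2, 3 or 4, isocaloric naive replicate 2, or either control trained array.

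Over the 9520 probe sets at or above the 40th percentile, the spread of the training differences was an SD of 0.16 in the alcohol diet, 0.18 in the isocaloric diet and 0.25 in the control diet. A difference beyond 0.5 was seen for 64, 137 and 418 probe sets. Groups differed in size, at 8, 6 and 4 arrays. The diets hold separate arrays, so their differences share no samples. Across probe sets, which are not independent replicates, the alcohol and isocaloric differences had a Pearson r of 0.234, the alcohol and control differences -0.129, and the isocaloric and control differences -0.192. The same sign was shared by 57.6%, 44.4% and 40.6% of probe sets. Without the few-digit arrays the 3 coefficients were 0.234, 0.037 and -0.129. The 2 control-diet differences made from separate array pairs, few-digit and other, had an r of 0.001.

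**Figure D2:**
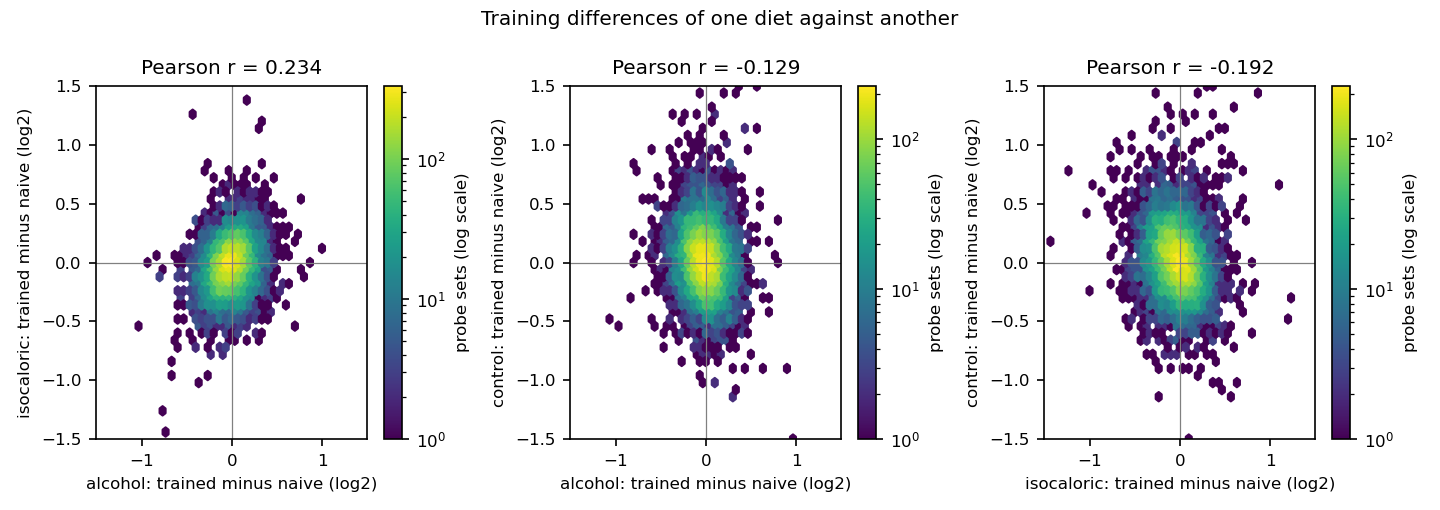
Trained minus naive difference (log2) in one diet against another for probe sets at or above the 40th percentile of level, coloured by the number of probe sets per hexagon on a log scale, and 9 of 9520 lay beyond 1.5 in a diet and are cut off in part. The cloud for alcohol and isocaloric leans upward (r = 0.234), and those with the control diet lean downward (r = -0.129 and -0.192).

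In the plots of one diet against another the control axis is the widest. Genes of oxidative phosphorylation, the respiratory chain and ATP synthase, and of cytosolic ribosomes had medians above 0 in the alcohol and isocaloric diets and below 0 in the control diet. The medians of 69 respiratory subunits were 0.04, 0.14 and -0.17 in the alcohol, isocaloric and control diets, and 8 of the 69 (11.6%) had the same direction in all 3. The medians of 39 ribosomal proteins were 0.05, 0.14 and -0.25, and 4 of 39 (10.3%) had the same direction. Over all probe sets the medians were -0.00, -0.02 and 0.01, and 22.5% had the same direction. The difference from the other genes was not tested. The subunit Ndufb11 of complex I differed by 0.26 and 0.25 in the alcohol and isocaloric diets and by -0.09 in the control diet. Cox5a of complex IV differed by 0.26, 0.40 and 0.24, an average of 0.30 (limma adjusted p = 0.812). The ribosomal protein Rpl13a differed by -0.00, 0.09 and -0.88.

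Immediate early genes were measured for 37 of 43 listed, and 23 of these lay at or above the 40th percentile. In limma 0 of 37 (0%) passed the adjusted threshold in either direction, and 0 had an unadjusted p under 0.05, against 5.59% of all probe sets. The same direction in all 3 diets was seen for 7 of 37 (18.9%), 4 higher and 3 lower, against 22.5% of all. The medians of the list were -0.06, -0.05 and 0.09 in the alcohol, isocaloric and control diets.

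Arc, whose protein governs AMPA receptor removal at active synapses, had log2 signals of 7.64, 7.59, 7.99 and 7.49 in alcohol trained and 7.91, 7.67, 7.92 and 7.80 in alcohol naive animals. It was 7.62, 7.83, 7.44 and 8.27 in isocaloric trained against 7.91 and 8.11 in isocaloric naive animals. It was 7.30 and 7.58 in control trained against 7.58 and 7.42 in control naive animals. The groups overlapped in every diet. The average was -0.14 (95% interval -0.36 to 0.08, limma adjusted p = 0.954), with -0.15, -0.22 and -0.07 in the 3 diets. The transcription factor Egr1 differed by -0.10 (95% interval -0.31 to 0.11) and the nuclear receptor Nr4a1 by -0.06 (95% interval -0.22 to 0.11). Trained and naive arrays of Nr4a1 overlapped in every diet, and those of Egr1 overlapped in the alcohol and control diets but not in the isocaloric diet, where the trained arrays were lower.

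Sgk1, a kinase induced by glucocorticoids and by activity, was the immediate early gene with the smallest p. Its log2 signal was 9.31, 8.29, 8.54 and 8.45 in alcohol trained and 8.34, 8.17, 8.28 and 8.29 in alcohol naive animals. It was 8.67, 8.31, 8.52 and 8.45 in isocaloric trained and 8.24 and 8.27 in isocaloric naive animals. It was 8.58 and 8.34 in control trained and 8.51 and 8.25 in control naive animals. Alcohol trained replicate 1 stood highest, and the arrays separated in the isocaloric diet alone. The average was 0.23 (95% interval -0.0036 to 0.47), with an unadjusted p of 0.0532 and an adjusted p of 0.892 in limma.

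The other genes given by name did not pass the test either, and each is given by its brightest probe set. The transcription factor Junb differed by 0.05, the scaffold Homer1 by -0.02, the neurotrophin Bdnf by 0.04, and the MAP kinase phosphatase Dusp1 by -0.10. The probe sets of Fos (-0.27), Fosb (0.19) and Egr2 (-0.13) lay below the 40th percentile. Another dim probe set of Fos gave -0.70 (95% interval -1.43 to 0.02, limma adjusted p = 0.902). Other dim probe sets gave -0.23 for Bdnf, -0.23 for Homer1 and -0.37 for Grin1, and 3 brighter ones of Homer1 gave -0.11 to -0.07. Ptgs2, the inducible cyclooxygenase, averaged 0.02 from -0.25, -0.29 and 0.59, and the interaction test gave limma adjusted p = 0.198. Among plasticity genes that are not immediate early genes, the growth cone protein Gap43 differed by -0.01, the RNA-binding protein Elavl4 by -0.07, the NMDA receptor subunit Grin1 by -0.07 and the transcription factor Creb1 by 0.06. Camk2a, the alpha subunit of CaMKII, differed by -0.16 with its brightest probe set (-0.04, 0.62 and -1.04 in the 3 diets) and by -0.13 and 0.01 with the others. For that brightest probe set the control-diet difference was -0.44 in the few-digit pair of arrays and -1.64 in the other pair.

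**Figure D3:**
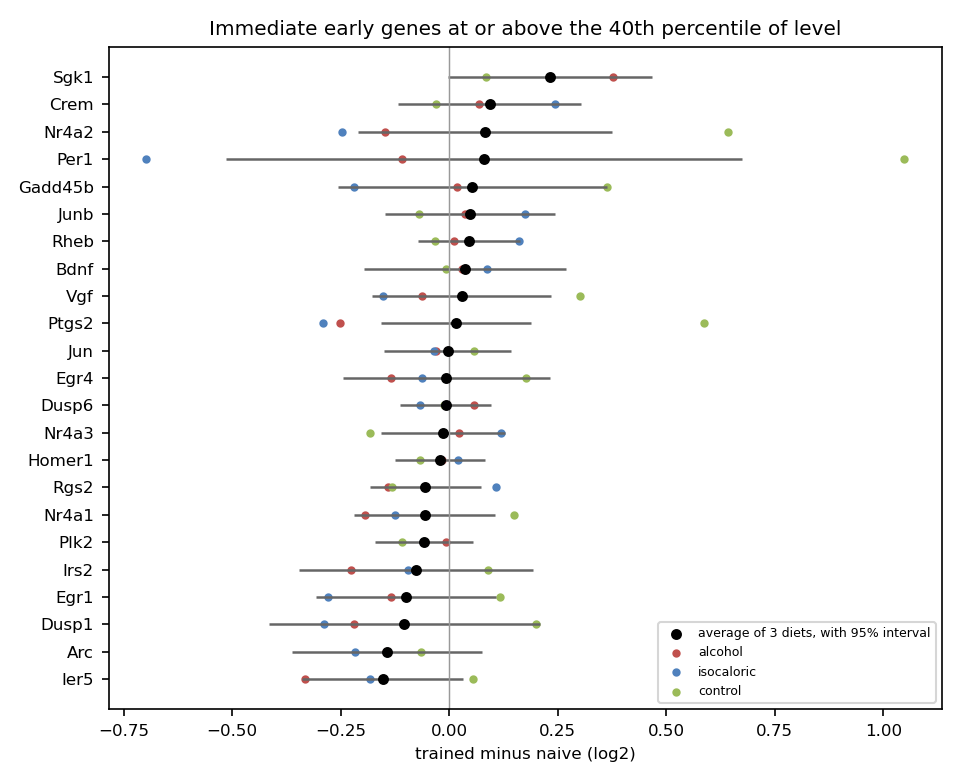
Trained minus naive difference (log2, horizontal axis) of the 23 immediate early genes at or above the 40th percentile of level (vertical axis), with the average of 3 diets and its 95% interval in black and each diet in colour. Every interval includes 0, and Sgk1 (0.23) is the highest.

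As the plot of immediate early genes shows, the diets often lay on opposite sides of 0. Many of these genes carry the cAMP response element, the site CREB binds. RefSeq promoter windows on GRCr8 (250 bases before to 50 after the start, 300 in all) were found for 34 of the 43 listed genes and searched for TGACGTCA, which reads the same on both strands. It was present in 8 of 34 (Arl4d, Btg2, Crem, Dusp1, Ier2, Jund, Plk2 and Vgf) and in 612 of 33469 promoters in all (1.83%). A match is a description, neither a site nor a cause, and the absence of a match says only that these letters are not in this window. The windows of Dusp1 (chr10:17184603-17184902, plus strand) and Vgf (chr12:25276971-25277270, minus strand) show the full motif in capitals near the start of 2 genes with little training difference.
Dusp1: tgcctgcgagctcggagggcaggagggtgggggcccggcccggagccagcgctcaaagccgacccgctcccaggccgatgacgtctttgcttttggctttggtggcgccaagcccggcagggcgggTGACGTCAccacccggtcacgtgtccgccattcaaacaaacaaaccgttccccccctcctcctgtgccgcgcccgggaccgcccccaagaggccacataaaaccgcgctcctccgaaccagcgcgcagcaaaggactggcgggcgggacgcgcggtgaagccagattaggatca
Vgf: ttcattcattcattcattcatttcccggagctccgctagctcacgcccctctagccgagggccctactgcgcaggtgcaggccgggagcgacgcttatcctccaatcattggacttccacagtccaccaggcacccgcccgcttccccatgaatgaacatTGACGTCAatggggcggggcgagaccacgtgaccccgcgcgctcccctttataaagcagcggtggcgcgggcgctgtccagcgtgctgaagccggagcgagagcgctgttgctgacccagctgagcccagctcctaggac

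Of the 8 genes with the motif 6 were measured, and their averaged training differences ran from -0.10 to 0.17, with a median of -0.01. The 23 measured genes without it had a median of 0.04 and a range of -0.15 to 0.48. Across the 18 arrays, after each group's mean was removed, r between pairs of immediate early genes ran from -0.627 (Jun and Plk2) to 0.78 (Arc and Nr4a1), with a median of 0.09 over 253 pairs, of which 98 were below 0. These are descriptions of arrays that share 1 tissue and scaling.

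The other lists covered signalling, synapse, metabolism and cell types. Over all 30 lists 716 genes were measured. In limma 0 of them passed the adjusted threshold, 38 (5.31%) had an unadjusted p under 0.05, against 5.59% of all probe sets, and 147 (20.5%) had the same direction in all 3 diets, against 22.5%. Of the 38, 21 had the same direction, against 636 of the 887 such probe sets over all tested. Pooled over the 30 lists, the members thus did not stand out. Single lists differed, with choroid plexus markers at 64.7% in the same direction.

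In 3 synaptic lists 6 of 90 genes (6.67%) had an unadjusted p under 0.05, near the 5.59% of all probe sets, and 0 passed the adjusted threshold in limma. Among glutamate receptors and postsynaptic density genes 6 of 41 (14.6%) had the same direction, against 22.5% of all probe sets. An unadjusted p under 0.05 was found for 2 of 41, both higher, the scaffolds Shank3 (0.24) and Dlgap3 (0.22). Synaptic vesicle and release genes had 2 higher and 1 lower of 34, and 17.6% had the same direction. The active zone scaffold Bsn (0.23) and the vesicle protein Syn2 (0.15) were higher, and the vesicular glutamate transporter Slc17a6, which is also a thalamic marker, was lower (-0.34). GABA synthesis and receptor genes had 1 of 16, the receptor subunit Gabra4 (-0.16).

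In the kinase and growth factor lists 3.23% to 6.25% of genes had an unadjusted p under 0.05, near the 5.59% of all probe sets. In cAMP and CREB signalling these were 2 of 32, both higher, Ppp1r1a and the acetyltransferase Ep300 (0.19). The same direction was seen for 21.9% of that list, against 22.5% of all probe sets. In the MAP kinase pathway it was Nras alone of 19, at -0.42 on average with opposite signs between diets. Of 27 calcium and calmodulin kinase genes it was the protein kinase C isoform Prkce, at 0.12, 0.28 and 0.12 (average 0.17). Of 31 neurotrophin and growth factor genes it was the IGF receptor Igf1r, at 0.15, 0.21 and 0.23 (average 0.20).

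Axon growth and structural plasticity genes had 1 higher and 2 lower of 38. The microtubule-associated protein Map1b was 0.20 higher, with 0.16, 0.23 and 0.20 in the 3 diets. The microtubule-destabilising Stmn4 differed by -0.20 and the collapsin response mediator Dpysl3 by -0.30. Glucocorticoid and stress response genes had 1 of 25, Errfi1. Of the 25, 4 (16%) had the same direction, all higher, against 22.5% of all probe sets. Those were Errfi1, Sgk1, the mineralocorticoid receptor Nr3c2 (0.16) and the receptor co-chaperone Fkbp5 (0.15).

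In 4 lists on the synthesis, folding and breakdown of proteins 9 of 148 genes (6.08%) had an unadjusted p under 0.05, near the 5.59% of all probe sets, and 0 passed the adjusted threshold in limma. Translation factors had 0 higher and 2 lower of 44, Eif4b (-0.15) and Eif3b (-0.13), and 1 higher and 7 lower had the same direction (18.2%). Heat shock and chaperone genes had 2 lower of 31, Cct4 (-0.12) and the HSP110-family member Hspa4, which differed by -0.28, -0.23 and -0.33 (average -0.28, limma adjusted p = 0.721). The same direction was seen for 29% of that list, against 22.5% of all probe sets. Proteasome and ubiquitin genes had 2 higher and 1 lower of 34 (26.5% in the same direction). Cytosolic ribosomal proteins had 1 higher and 1 lower of 39, and oxidative phosphorylation had 4 higher and 2 lower of 69. Chromatin modifiers had 2 higher and 1 lower of 23, including the NuRD subunit Mbd3 (0.16) and Hdac11. Glycolysis had 1 lower of 24, Pfkm (-0.13), and cholesterol synthesis 1 lower of 21, Mvd (-0.95, at a mean level of 5.43 below the 40th percentile).

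**Figure D4:**
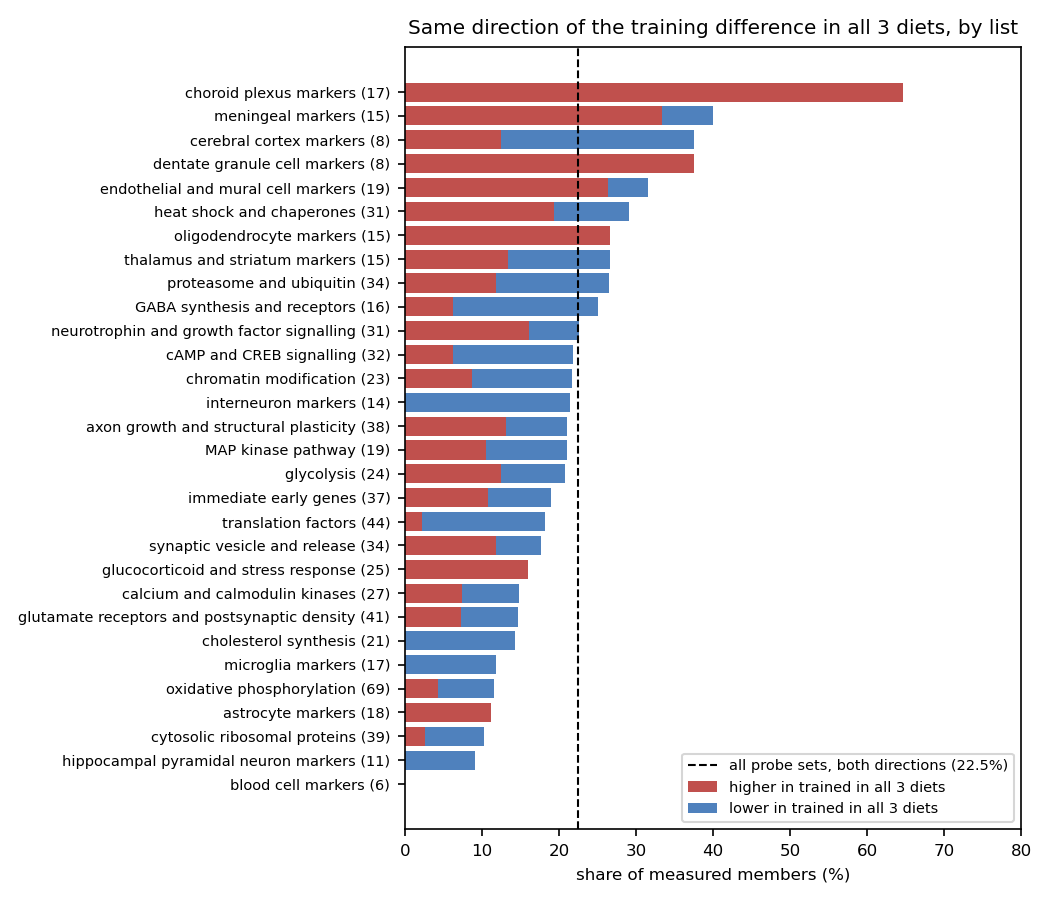
Share of each list's measured genes (number in brackets) whose trained minus naive difference had the same sign in all 3 diets, higher in red and lower in blue, with the share over all probe sets (22.5%) as a dashed line. Choroid plexus markers reach 64.7%, all higher, and the other lists lie at or under 40%.

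Markers of the expected cells of hippocampus were present. On the trained arrays the summed signal of 11 pyramidal neuron markers was 7979 to 10180, and it was 7847 to 10100 on the naive arrays. For 18 astrocyte markers it was 23857 to 29410 and 21596 to 30610, for 15 oligodendrocyte markers 14036 to 18317 and 11932 to 18587, and for 17 microglia markers 2546 to 2976 and 2478 to 3809. These ranges overlapped throughout. An unadjusted p under 0.05 was found for 0 of 11 pyramidal, 0 of 8 dentate granule, 1 of 14 interneuron (Sst, -0.18), 1 of 18 astrocyte (Ntsr2, -0.15), 0 of 15 oligodendrocyte and 2 of 17 microglia markers (Laptm5, -0.15, and Itgam, -0.47). It was found for 0 of 19 endothelial and mural, 0 of 17 choroid plexus, 0 of 15 meningeal, 0 of 6 blood, 1 of 15 thalamus and striatum and 0 of 8 cerebral cortex markers. Of 8 dentate markers 3 (37.5%) had the same direction, against 22.5% of all probe sets. They were Sipa1l2 (0.25), Pdzd2 (0.27) and Prox1 (0.10), all higher. The medians of the 8 markers were 0.08, 0.05 and -0.01 in the alcohol, isocaloric and control diets. Their summed signal had a median of 1270 on trained and 1273 on naive arrays.

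Choroid plexus markers stood apart in the plot of shares by list. Meningeal markers came next, with 5 higher and 1 lower of 15 (40%) in all 3 diets. Their summed signal was 1714 to 5514 on trained and 1597 to 3249 on naive arrays. Igf2 is on both lists. The choroid plexus secretes cerebrospinal fluid into the ventricles beside the hippocampus, and Ttr, the thyroid hormone carrier transthyretin, is among its most abundant products. Of 17 measured markers 11 (64.7%) were higher in trained animals in all 3 diets and 0 were lower. The medians were 0.31, 0.43 and 0.48. The summed signal of the choroid plexus list, which includes Ttr, was 9557 to 12186 on 4 arrays and 984 to 1820 on the other 14. Those 4 arrays were alcohol trained replicate 4, isocaloric trained replicate 3, control trained replicate 1 and alcohol naive replicate 2, so each diet had 1 trained array of this kind and the alcohol diet had the only naive one. Without them 2 markers were higher and 2 lower in all 3 diets, and the medians were 0.11, -0.00 and -0.15. In bulk tissue more cells of a type and more RNA per cell cannot be told apart.

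Ttr itself had log2 signals of 7.83, 6.56, 9.57 and 12.84 in alcohol trained and 7.53, 12.67, 6.28 and 6.46 in alcohol naive animals. It was 7.80, 9.20, 12.54 and 7.55 in isocaloric trained and 6.80 and 6.10 in isocaloric naive animals. It was 12.54 and 7.85 in control trained and 6.82 and 7.72 in control naive animals. The 4 named arrays lay above 12 and the rest below 10. The average difference was 2.24 (exact permutation p = 0.0703, two-sided, 6300 arrangements within diets, adjusted p = 0.211 over 3 array measures). Without the 4 arrays it was 1.18. They were chosen as the highest in Ttr, so a smaller Ttr difference without them was largely set by that choice.

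**Figure D5:**
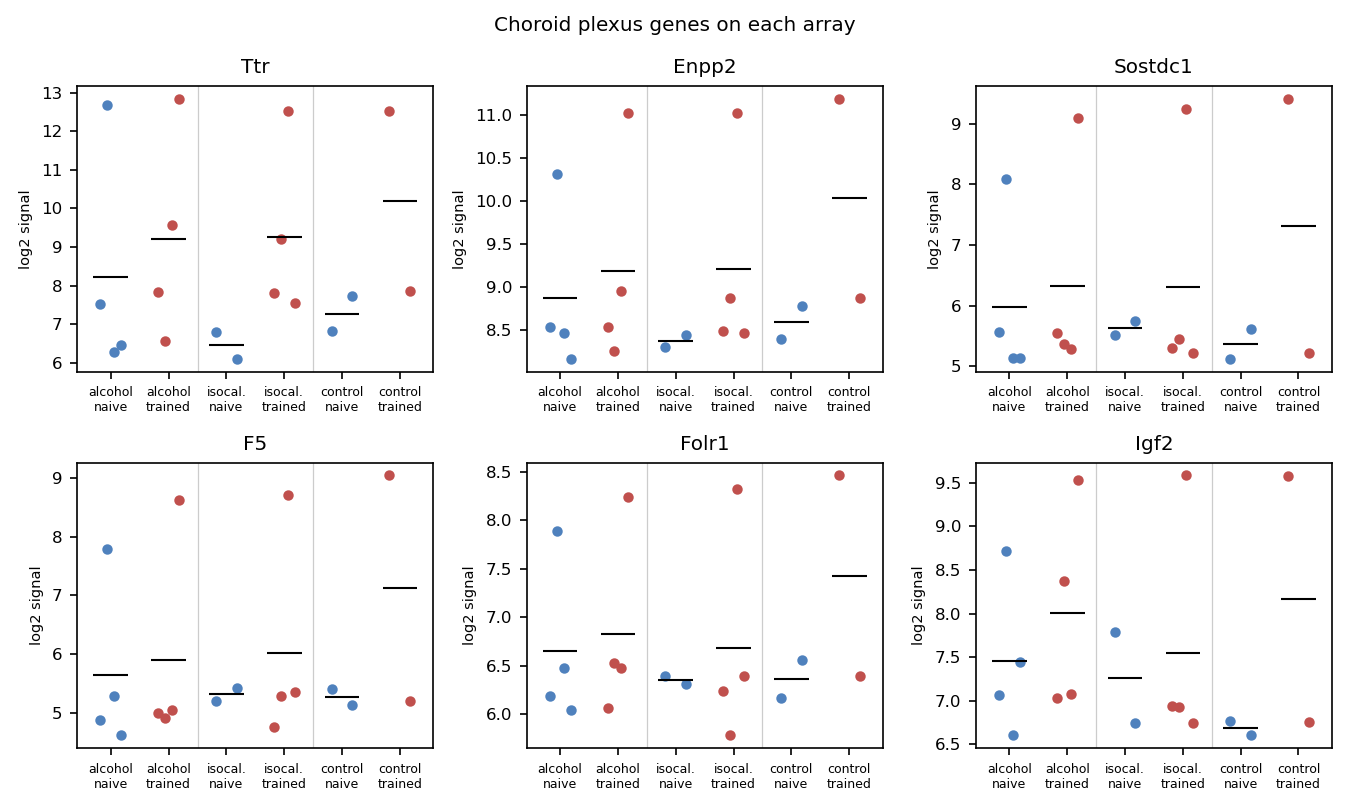
Log2 signal (vertical axes, which do not start at 0) of 6 choroid plexus genes by diet and training (horizontal axes), with 1 point per array, naive in blue and trained in red, and bars at group means. In each panel the same 4 arrays, 3 trained and 1 naive, lie above the other 14. For Ttr this follows from the choice of these arrays as the highest in Ttr.

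The panels of choroid plexus genes bear on a ranking by size. Among genes at or above the 40th percentile of level, the 12 with the largest averaged difference and the same sign in all 3 diets were Ttr, Sostdc1, F5, Enpp2, Igf2, Igfbp2, Mettl26, Mdk, Slc4a2, Trpm7, Mfrp and Folr1. In 10 of these 12 all 4 Ttr-high arrays lay above the other 14, the exceptions being Mettl26 (-0.62) and Trpm7. For Ttr, 1 of the 10, this follows from how the arrays were chosen. The Wnt inhibitor Sostdc1 differed by 0.99 with all arrays and by -0.11 without the 4, coagulation factor F5 by 0.94 and -0.07, the lysophospholipase Enpp2 by 0.87 and 0.24, and the growth factor Igf2 by 0.77 and 0.05. The folate receptor Folr1 differed by 0.52 and -0.02, and the membrane protein Mfrp by 0.53 and -0.25. Trpm7 was 0.50 higher without them.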

How the data were processed

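RNA of rat hippocampus was measured on 18 Affymetrix arrays, 1 per sample, grouped by diet and training from the sample descriptions (1 writes CFC-training with a hyphen). The authors deposited a linear-scale intensity for each probe set and array. Per the submitters' processing notes MAS5 was used for 2 samples, the few-digit arrays, and no algorithm is named for the others in these sources. The mean after trimming 2% at each end was 150.03 on every array, so a broad shift in total RNA would not be seen. All 18 value columns were mapped, and 0 were left unassigned.

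A constant of 6.06, equal to the 10th percentile over the whole file, was added before log2 was taken, which understates folds of dim probe sets. limma 3.58.1 in R 4.3.3 was fitted to the 6 group means over all non-control probe sets (lmFit, eBayes with trend), two-sided, with Benjamini-Hochberg adjustment and a threshold of 0.05. The averaged effect weights the 3 diets equally. Array measures were tested by exact permutation within diets. Number of arrays limits the precision.

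Of 15923 probe sets, 12789 had 1 gene symbol, 312 several and 2822 none. By gene ID 12754 of the former matched a RefSeq gene table (GRCr8), with 0 symbols changed. Genes ranked had 1 symbol, a level at or above the 40th percentile and the same sign in all 3 diets. As fewer than 5 passed, the 10 with the smallest p in each direction were named although they did not pass. Several genes were also given by name, with the diet differences past the threshold and the 5 smallest interaction p. The 12 largest by size and the probe sets in nominal counts were chosen after their values were seen. For lists 1 probe set per gene was used, that with the highest mean. The members and lists were chosen with earlier results of these data known.

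The fit was tested on simulated data for the averaged training effect with 15866 probe sets: of 100 changed by 0.5 (log2) 72% were called, of 100 changed by 1, 100%, and 7 unchanged ones were called. Alternatives were quantile normalisation, median centring, a constant of 32, a filter on low values, array weights, a replicate block, a term for or removal of the few-digit arrays, RNA integrity covariates, removal of the 4 arrays highest in Ttr, each array left out, an additive model, no control diet and fits on 2 groups alone. Promoters were searched with Python 3.11.15, pandas 2.3.3, numpy 2.4.6; matplotlib 3.10.9 drew the plots.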

Additional observations from a re-analysis of the deposited data

Results flagged for a closer look

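Within groups of 4 arrays, 216 sets of values of the genes described were checked for 1 array far from the others, and 14 (6.48%) met the criterion, a gap to the nearest array that exceeds Dixon's 95% critical value relative to the range. Chance gives about 5% of groups. Most lay on arrays high in choroid plexus transcripts. The genes checked included the choroid plexus markers, which gave most of these sets, so this is no separate result about the arrays. On alcohol trained replicate 4 the log2 signal of F5 was 8.62 (others 4.91 to 5.04), of Sostdc1 9.09 (5.28 to 5.55), of Trpv4 4.68 (2.98 to 3.25), of Otx2 4.71 (5.07 to 5.12), of Tead1 6.87 (6.44 to 6.50) and of Nras 7.54 (6.74 to 6.86). On isocaloric trained replicate 3 it was 11.03 for Enpp2 (8.47 to 8.88), 8.71 for F5 (4.75 to 5.35), 9.25 for Sostdc1 (5.22 to 5.46), 9.58 for Igf2 (6.75 to 6.94) and 6.90 for Tead1 (6.54 to 6.59). On alcohol naive replicate 2 it was 8.08 for Sostdc1 (5.14 to 5.57) and 9.96 for Gap43 (9.76 to 9.79). On isocaloric trained replicate 4 it was 4.46 for a probe set without a gene symbol (3.06 to 3.21). Tead1, a gene ranked higher in trained animals, had its highest trained values on the 3 trained arrays among the 4 highest in Ttr. The third was control trained replicate 1, at 6.84. Without those 4 arrays the average of Tead1 was 0.17.

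The training difference differed between diets past the adjusted threshold in limma for 10 comparisons. For isocaloric minus control these were Nrep (-1.46), Nras (-1.98), Ssb (-1.34), a probe set without a gene symbol (-1.25), Hdac5 (0.84), Eif3i (0.75) and Abhd17a (0.91). For control minus alcohol they were Alkbh5 (0.97), Kctd17 (-0.78) and Abhd17a (-0.87). Each of these rests on 4 control-diet arrays, 2 of them the few-digit arrays.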

How the results depend on the processing

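Counts of adjusted p under 0.05 are given in the order averaged effect, same direction in all 3 diets, alcohol, isocaloric, control, interaction, which were 0, 0, 0, 1, 0 and 0 as reported, with the same sign in all 3 diets for 22.5% of probe sets. Leaving out 1 array at a time gave 0 to 95, 0 to 63, 0 to 1, 0 to 2, 0 to 600 and 0 to 289, and 21.6% to 24.5% with the same sign. The highest averaged, control and interaction counts came without control naive replicate 1. In the averaged effect, leaving out control trained replicate 1 gave 1 call (Mllt1, lower), and each of the remaining 16 arrays gave 0. Without the few-digit arrays the counts were 17, 11, 0, 0, 208 and 96 (25% same sign), and with a term for them 1, 1, 0, 0, 3 and 0. The lone control arrays in such fits are assumed to vary like the other groups. Quantile normalisation gave 2, 2 and, in the isocaloric diet, 2. Leaving out low probe sets gave 1, 1, 0, 0, 3 and 0 (21.3%). Without the 4 arrays highest in Ttr they were 1, 0, 2, 3, 1 and 1. The Gapdh ratio as a covariate gave 1 in each of the alcohol diet, control diet and interaction and 2 in the isocaloric diet (20.2%), and the Actb ratio gave 0 in the isocaloric diet (20.2%). The isocaloric count was 0 with a constant of 32 and in a fit of its 2 groups, and 19 with array weights. Without the control diet the averaged count was 1. The calls of Bcr, at an adjusted p of 0.0345 without low probe sets, 0.0341 with the few-digit term and 0.0385 with quantile normalisation, had the reported direction. The replicate block gave 0 averaged calls and 3 in the isocaloric diet (Bcr adjusted p = 0.477). Trained and naive arrays of the same number correlated at -0.083 to 0.122 over 8 pairs, 1 of them above 0.1, and 2 correlated best with their own number, so they share a number and no pairing was assumed.

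Signs turned for small, uncalled differences. With the replicate block Homer1 was 0.0027 and Gap43 0.0222. Without the few-digit arrays Egr1 was 0.0068, Ptgs2 -0.0316 and Grin1 0.0783. Without the 4 arrays highest in Ttr, Fos was 0.0262, Homer1 0.0196, Bdnf -0.0298, Dusp1 0.0362, Gap43 0.0556 and Camk2a 0.0636. The additive model gave -0.0694 for Ptgs2, and the fit without the control diet -0.2702 for Ptgs2, 0.0022 for Homer1 and 0.2869 for Camk2a. With 1 array left out, the ranges of genes whose sign turned were -0.0232 to 0.0963 for Bdnf, -0.2362 to 0.0376 for Egr1, -0.1389 to 0.0007 for Elavl4, -0.5777 to 0.0295 for Fos, -0.0093 to 0.3931 for Fosb, -0.0445 to 0.0187 for Gap43, -0.2203 to 0.083 for Grin1, -0.0518 to 0.1468 for Junb and -0.0429 to 0.074 for Ptgs2. Hipk2 passed without control naive replicate 1 (adjusted p = 0.0490, limma). The cause of these changes was not tested. All 20 ranked genes kept their sign under each alternative. Groups of 2 arrays limit the control and isocaloric naive means, and dim probe sets are the least precise.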
